A study of Homo sapiens with 12 samples.

Results

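The genes of RNA polymerase II and of the Mediator complex were taken as all protein-coding genes whose symbol starts with POLR2, or is MED followed by a number. These were 45 of 20056 protein-coding genes, 15 of them POLR2 genes and 30 of them MED genes. A peak was given to such a gene when its midpoint lay inside the gene's span on GRCh38 and on the gene's strand. In this way 330 of 126599 peaks fell in the 45 genes, and 36 of the 45 genes held at least 1 of them.

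The peaks came from acRIP-seq, which sequences RNA fragments bound by an antibody to ac4C (N4-acetylcytidine, cytidine carrying an acetyl group). The cells were SW620, a human colorectal cancer cell line. The control group, shControl, was labelled with the genotype WT, and the other group, shNAT10, with NAT10 knockdown. NAT10 is the acetyltransferase that writes ac4C, and the comparison asks how ac4C peaks differ when it is depleted. Both groups were made with lentiviral shRNA and selected with puromycin, the labels do not say which NAT10 shRNA was used, and nothing says that the replicates came from separate cultures, so the tests measure only the spread between these libraries. Each group had 3 immunoprecipitated libraries with a peak list, and the 6 matching inputs had no file here.

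RNA polymerase II transcribes the mRNA genes of the nucleus. It has a set of subunits of its own and a set that it shares with RNA polymerases I and III. Mediator joins transcription factors bound at enhancers to the polymerase at the promoter, and is built of a head, a middle and a tail module around the backbone subunit MED14, with a kinase module that binds and leaves it.

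The lists held 18241, 22619 and 20063 peaks in control replicates 1, 2 and 3, and 28752, 17877 and 19047 in knockdown replicates 1, 2 and 3. Values by library are given in this order throughout. Read depth is unknown, and 7.85% to 14.1% of a library's peaks had a score of 3100 or more, which was treated as a tie. NAT10 held 1, 0 and 2 peaks in control and 2, 0 and 1 with knockdown, and since a peak number does not measure mRNA the lists do not check the knockdown. Of the epithelial markers EPCAM, CDH1, KRT8, KRT18 and KRT19, 3 of 5 had peaks in every library, KRT19 in 2 libraries and KRT18 in 0. Of the intestinal markers, CDX2 and VIL1 held peaks in all 6 libraries and CDX1, KRT20 and GPA33 in 0. The leukocyte markers PTPRC, CD3E and CD68 had no peak, and of 3 fibroblast markers COL1A1 had peaks in 3 libraries.

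The peak regions of 4 genes at the annotated start are shown first, since starts were among the places where peaks of these genes were listed in most libraries. Each sequence runs 5′ to 3′ on the gene's strand, from 120 bases before the RefSeq start on GRCh38.p14 to 30 bases from it, and the capitals mark the bases inside the merged peak region. MED17 lies on the plus strand and its window is chr11:93784162-93784311, MED10 on the minus strand at chr5:6378518-6378667, MED19 on the minus strand at chr11:57712186-57712335 and POLR2M on the plus strand at chr15:57706594-57706743.
MED17: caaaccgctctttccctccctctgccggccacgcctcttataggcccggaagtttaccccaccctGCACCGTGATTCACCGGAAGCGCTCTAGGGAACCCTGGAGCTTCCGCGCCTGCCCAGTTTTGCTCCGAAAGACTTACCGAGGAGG
MED10: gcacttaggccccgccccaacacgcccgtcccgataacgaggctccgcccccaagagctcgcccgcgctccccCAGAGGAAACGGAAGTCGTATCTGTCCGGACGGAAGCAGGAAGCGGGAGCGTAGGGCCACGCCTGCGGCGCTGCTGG
MED19: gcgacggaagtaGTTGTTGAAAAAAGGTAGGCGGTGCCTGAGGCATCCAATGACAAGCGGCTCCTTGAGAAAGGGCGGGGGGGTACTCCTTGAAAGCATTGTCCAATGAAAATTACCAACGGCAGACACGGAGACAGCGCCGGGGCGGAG
POLR2M: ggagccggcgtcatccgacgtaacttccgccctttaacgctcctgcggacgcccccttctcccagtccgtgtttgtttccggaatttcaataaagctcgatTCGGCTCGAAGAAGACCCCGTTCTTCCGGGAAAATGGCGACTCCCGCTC
The regions of MED17, MED10 and MED19 held a peak in all 6 libraries, and that of POLR2M in 5. In MED19, 138 of the printed bases lay in the peak region, in MED10 77, in MED17 85 and in POLR2M 49. In each of these 4 the region thus began before the annotated start, by 55 bases in MED17, 47 in MED10, 108 in MED19 and 19 in POLR2M. This was not so in every gene, since the regions of MED4 and POLR2F, not printed here, began at the annotated start itself. ac4C in mRNA has been described at repeated CNN triplets, so the motif CNNCNNCNNCNN was searched on both strands of 8 such windows. Of 13 genes with a region at the start in at least 4 libraries, these 8 had a window that reached into that region. POLR2J, MED13 and MED30 had no window to read. In POLR2D and MED13L the region began beyond the window, 206 and 355 bases into the gene. It was found on the gene's strand in 6 of 8 windows and on the opposite strand in 6 of 8, against 67.8% and 71.1% of 13820 windows of the same length from all genes. Most of each window lies before the annotated start, and 30 to 138 of its bases lay inside the peak region. On the gene's strand the motif lay wholly inside the peak region in 4 of the 8 windows, so the counts over whole windows describe the start of the gene and not the peak. Over the first 50 bases from the annotated start, which reach beyond the 30 in the window, the median share of C was 23% in the 8 genes. Single genes of the 8 ran from 18% in MED27 to 38% in POLR2M. The median was 30% over the genes of all 13820 windows, with quartiles of 24% and 36%. With 8 genes this difference is not read as a feature of them. The median share of G and C together was 65.0% in the 8 genes and 64.0% over all.

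Of the 45 genes, 36 (80.0%) had a peak in any library and 17 (37.8%) in every library, beside 61.2% and 29.7% of all protein-coding genes. The amount of mRNA of each gene is not known here, so the higher shares are not read as a feature of these genes. In the 45 genes together 47, 68 and 51 peaks were listed in control and 72, 47 and 45 with knockdown. The means were 55.3 ± 11.2 (SD, n = 3) and 54.7 ± 15.0 (SD, n = 3), and the groups overlapped. The highest number in each group came from the library with the longest list, control replicate 2 and knockdown replicate 1. Per 1000 listed peaks the control libraries had 2.58, 3.01 and 2.54 and the knockdown libraries 2.5, 2.63 and 2.36, so the groups overlapped on this scale too. The number of the genes with a peak was 27, 32 and 26 in control, against 29, 24 and 25 in the knockdown libraries. A peak that is listed in 1 library and not in another cannot be told apart from a difference in the amount of that mRNA or in read depth.

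**Figure D1:**
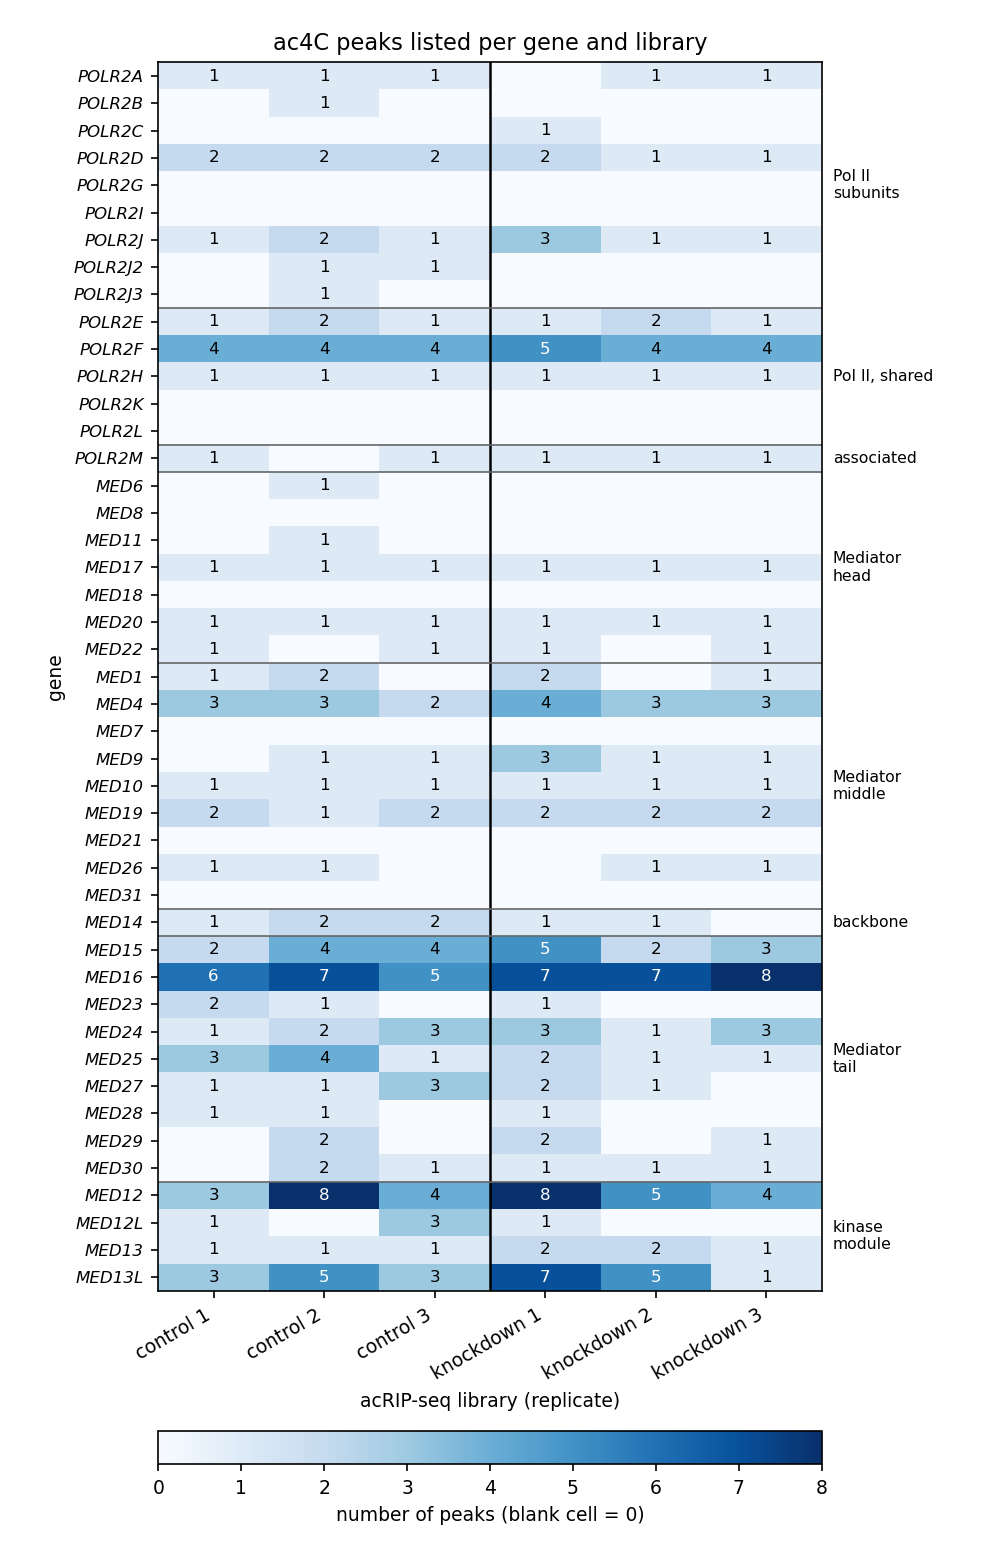
Number of ac4C peaks in each of the 45 genes (rows, grouped by role) and each of the 6 libraries (columns, control left of the line and NAT10 knockdown right of it). The 9 blank rows are genes without a peak, and MED16, MED12, POLR2F and MED13L stand out with the most peaks in both groups.

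No gene had peak numbers that were higher in every library of one group than in every library of the other, 0 of 36 genes with a peak, beside 2.22% of 12283 such genes. With the 50% of peaks that scored highest in each library, MED12 (2, 2 and 2 against 3, 3 and 3 with knockdown) and MED16 (5, 5 and 5 against 6, 6 and 7) did not overlap, 2 of 25 genes with a peak, beside 2.17% of 8395 such genes in that setting. None had peaks in each library of one group and 0 in the other group, 0 of 36, beside 0.7%. By gene, the two-sided exact permutation test of the peak numbers, whose smallest possible p with 3 against 3 libraries is 0.1, gave an adjusted p of 1.0 for each of the 36 genes (Benjamini-Hochberg over all 12283 genes with a peak).

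Among the subunits particular to RNA polymerase II, 7 of 9 genes held a peak and 2 did so in every library. POLR2A, the largest subunit with the catalytic centre and the C-terminal repeat domain, had 1 peak in every control library and 0, 1 and 1 in the knockdown libraries. All of its peaks fell in the region chr17:7499281-7499730, 14915 bases from the 5′ end of the gene. The percentile of a peak, its rank by score among all peaks of its library with 100 as the highest, was 49.5, 33.7 and 77.4 there in control and 53.0 and 51.0 in the knockdown libraries that listed it. POLR2B, the other large catalytic subunit, had a single peak, in control replicate 2, at percentile 21.4.

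POLR2D, which forms the stalk of the enzyme with POLR2G, had 2 peaks in each control library and 2, 1 and 1 in the knockdown libraries. Its region chr2:127852925-127853105 held a peak in all 6 libraries, with percentiles of 56.4, 44.7 and 21.2 in control and 70.7, 51.1 and 30.5 in knockdown. Its other region, 206 bases into the gene, held a peak in all 3 control libraries at percentiles 63.4, 65.0 and 64.4, and in knockdown replicate 1 at 76.4. POLR2C, an assembly subunit, had 1 peak in knockdown replicate 1, and POLR2G and POLR2I had none.

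POLR2J, which pairs with POLR2C in the assembly of the enzyme, and its near-identical copies POLR2J2 and POLR2J3 lie on chromosome 7, and reads from one copy may be placed on another, so their peaks are uncertain. POLR2J had 1, 2 and 1 peaks in control and 3, 1 and 1 in the knockdown libraries. The peak region at its start, chr7:102478808-102478907, was in all 6 libraries with the same bounds in each and percentiles of 91.1 to 95. POLR2J2 had a peak in control replicates 2 and 3 and none in the knockdown libraries, and POLR2J3 had 1 in control replicate 2. The region of POLR2J2 was 90 bases long and began 2659 bases into the gene, and POLR2J had a region of 90 bases at 2652, listed in control replicate 2 and knockdown replicate 1.

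Of the 5 subunits shared with the other RNA polymerases, POLR2E, POLR2F and POLR2H held peaks in every library and POLR2K and POLR2L had none. POLR2F had 4, 4 and 4 peaks in control and 5, 4 and 4 in the knockdown libraries. At its start, chr22:37953663-37953807, the control libraries listed a peak at percentiles 96.1, 95 and 93.6 and knockdown replicates 1 and 2 at 92.9 and 94.3, while knockdown replicate 3 listed none. These percentiles are those of the tied highest scores of each library. The POLR2F regions 3110 and 5683 bases from the start were in all 6 libraries.

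POLR2H had 1 peak in each library, at chr3:184362873-184363565, with the same bounds in all 6 and percentiles of 83.7 to 95. The gene has another annotated start at 184363361, inside that region. POLR2E had a region of 2142 bases near its 3′ end in all 6 libraries, at percentiles of 96.1, 60.2 and 93.6 in control and 92.9, 94.3 and 93.4 in knockdown. POLR2M, a protein that binds the polymerase and makes it depend on Mediator, had 1 peak in 5 libraries and none in control replicate 2, and its 5 peaks also lay in the span of GCOM1 on the same strand.

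In the Mediator head, which meets the polymerase, 5 of 7 genes held a peak. MED17, the scaffold of the head, had 1 peak in every library at its start, with the same bounds in all 6 and percentiles of 67.5, 44.6 and 70.9 in control and 59.6, 56.7 and 65.8 in knockdown. MED20 also had 1 peak in every library, and all 6 of them lay in the span of BYSL, which is read from the opposite strand. MED22 had 1 in 4 libraries, MED6 and MED11 had 1 in control replicate 2 only, and MED8 and MED18 had none.

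In the middle module 6 of 9 genes held a peak and MED4, MED10 and MED19 did so in all 6 libraries. MED4 had 3, 3 and 2 peaks in control and 4, 3 and 3 in the knockdown libraries. Its region at the start, chr13:48094954-48095104, had percentiles of 78.0, 80.6 and 56.3 in control and 79.1, 78.2 and 77.1 in knockdown. Its region 8652 bases in had 63.3, 71.1 and 32.0 in control and 76.6, 71.9 and 66.9 in knockdown, so that in both regions control replicate 3 was the lowest and the groups overlapped. MED10 had 1 peak in each library, at its start, at percentiles of 62.1 to 78.2.

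MED1, which contacts nuclear receptors, had 1, 2 and 0 peaks in control and 2, 0 and 1 in the knockdown libraries. MED26, through which elongation factors are brought to the promoter, held a peak near its 3′ end in control replicates 1 and 2 and one at its start in knockdown replicates 2 and 3. Neither region was in both groups. MED9 had 0, 1 and 1 peaks in control and 3, 1 and 1 in knockdown, and its region at the start was listed in knockdown replicate 1 alone, at percentile 92.9. MED7, MED21 and MED31 had none. MED14, the backbone, had 1, 2 and 2 peaks in control and 1, 1 and 0 in the knockdown libraries, in 5 regions of which 4 were listed in 1 library.

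In the tail, where many transcription factors bind, all 9 genes held a peak and 4 did so in all 6 libraries. MED16 had the most peaks of the 45 genes, 6, 7 and 5 in control and 7, 7 and 8 in the knockdown libraries, with means of 6 ± 1 and 7.33 ± 0.577 (SD, n = 3), and the groups met at 7 (two-sided exact permutation test, p = 0.3). With 2.64 peaks per 10 kb of its span it was also the first per length, followed by POLR2J with 2.59, MED12 with 2.24 and MED19 with 2.16. Of its 10 regions, 4 held a peak in all 6 libraries. The regions 6986, 13039 and 24688 bases from the 5′ end reached the tied highest scores in 4 or more libraries. The region 11473 bases in had percentiles of 8.9, 38.0 and 65.3 in control and 74.3, 60.3 and 72.9 in knockdown, and there the control libraries were spread widely and the groups overlapped. A region 17733 bases in was listed in knockdown replicate 3 alone, at percentile 93.4.

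MED15, which binds SREBP and other activators, had 2, 4 and 4 peaks in control and 5, 2 and 3 in the knockdown libraries, and its regions 56840 and 60911 bases in were in all 6. MED24 had 1, 2 and 3 in control and 3, 1 and 3 in knockdown, and MED27 had 1, 1 and 3 in control and 2, 1 and 0 in knockdown. MED25 had 3, 4 and 1 in control and 2, 1 and 1 in knockdown. The other 4 tail genes, MED23, MED28, MED29 and MED30, had 0 to 2 peaks a library. In MED23, which links Mediator to E1A and ETS factors, the region at the start was listed in control replicates 1 and 2 and knockdown replicate 1, at percentiles of 83.4, 95 and 92.9.

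All 4 kinase-module genes held a peak, 3 of them in all 6 libraries. MED12, which activates the kinase CDK8, had 3, 8 and 4 peaks in control and 8, 5 and 4 in the knockdown libraries. Its region chrX:71136281-71136655 was in all 6, at percentiles of 75, 81.5 and 84.6 in control and 81.8, 81.4 and 80.4 in knockdown. Of its 15 regions, 7 were listed in 1 library. MED12L, its paralogue and the longest of the 45 genes at 351 kb, had 1, 0 and 3 peaks in control and 1, 0 and 0 in the knockdown libraries, none above percentile 22.

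MED13, which ties the kinase module to the rest of Mediator, had 1 peak in each control library and 2, 2 and 1 in the knockdown libraries. MED13L, its paralogue, had 3, 5 and 3 in control and 7, 5 and 1 in knockdown. Of its 11 regions none was in all 6 libraries, and the one 355 bases into the gene was in 5. Of the enzymes of the module that are not named MED, CDK8, CDK19 and the cyclin CCNC, 2 of 3 held a peak and CCNC had none.

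**Figure D2:**
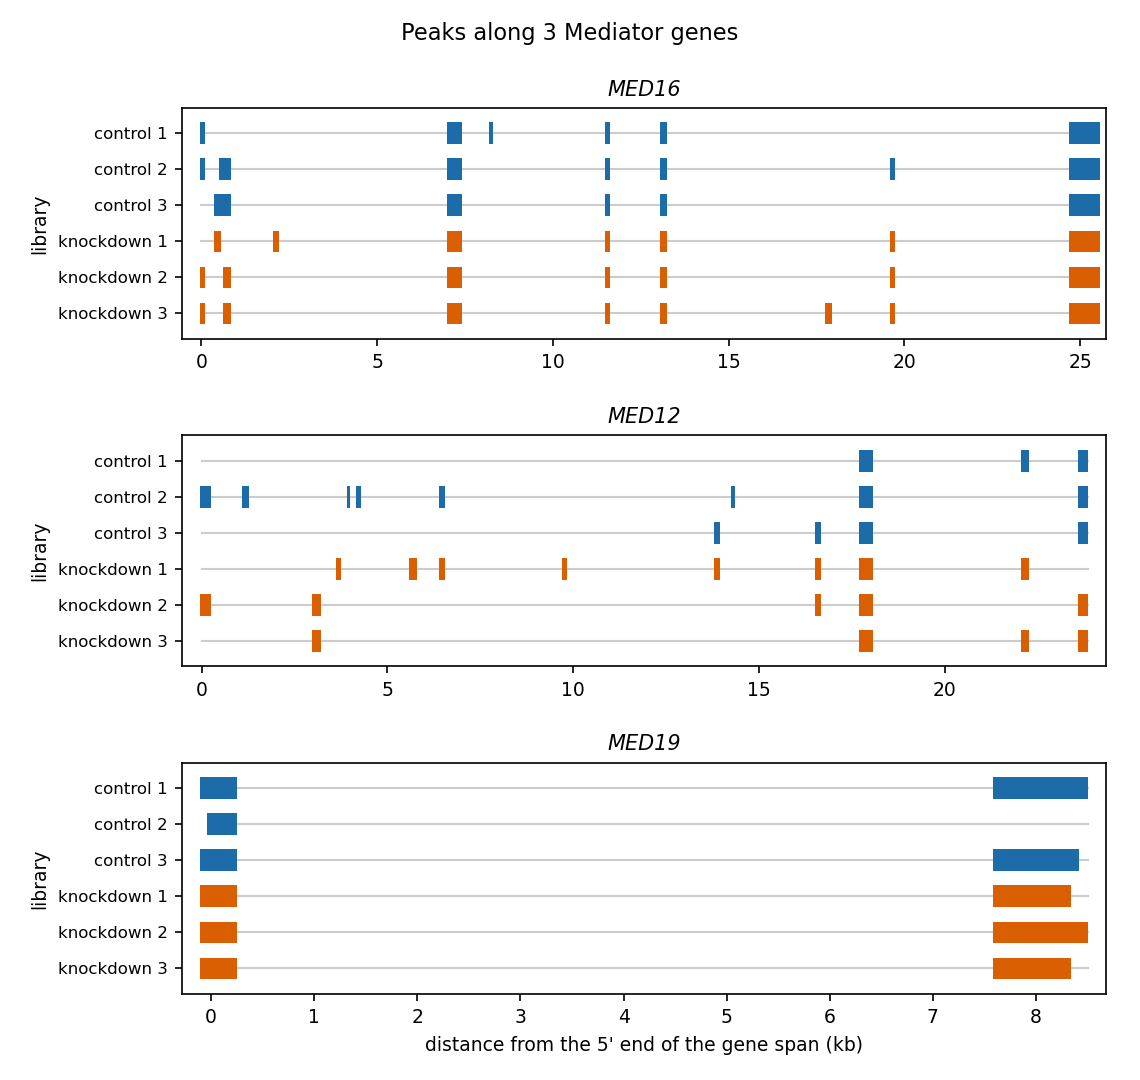
Peaks (bars) in each library along MED16, MED12 and MED19, by distance from the 5′ end in kb, with control libraries in blue and NAT10-knockdown libraries in orange. MED16 has 4 and MED12 has 1 region with a peak in every library, and the MED19 region at the 3′ end is missing in control replicate 2.

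Most peaks of these genes lay away from the ends of the gene. A peak that began within 500 bases of the 5′ end was counted as at the start, and one that ended within 500 bases of the 3′ end as at the end. Of the 330 peaks, 27.3% were at the start, 62.4% between and 10.3% at the end, beside 22.3%, 69.7% and 7.99% over all protein-coding genes. The share at the start was 31.9%, 26.5% and 25.5% in control against 23.6%, 29.8% and 28.9% in the knockdown libraries, and the groups overlapped. Over the 45 genes a longer span went with more peaks (Spearman's rho = 0.58), over the 36 genes with a peak less so (0.33), and over all 12283 genes with a peak rho was 0.24. These correlations are across genes, which share libraries and are not independent replicates. No exon annotation was used here, so whether a peak lies in a coding or untranslated part is not given.

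Overlapping peaks on the same strand, by 1 base or more and from any library, were merged into regions, which gave 117 regions in these genes out of 41755. Of the 117, 20 (17.1%) were listed in every library and 45 (38.5%) in 1 library, beside 22% and 38.7% of all regions. Of the 45 in 1 library, 17 (37.8%) came from knockdown replicate 1 and 15 (33.3%) from control replicate 2, the longest lists. Over all regions in 1 library these shares were 44.3% and 23.1%. The other 13 of the 45 came from the other 4 libraries. In 16 of the 20 regions shared by all libraries (80.0%) the peaks had the same bounds in each, beside 68.9% of all such regions. At the start, 24 regions in 23 genes were listed, 14 of them in 4 or more libraries and 4 in 1 library. Between the ends there were 83 regions, 20 of them in 4 or more libraries and 39 in 1 library. No such counts by place are given over all regions, so these are not read as a feature of these genes.

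**Figure D3:**
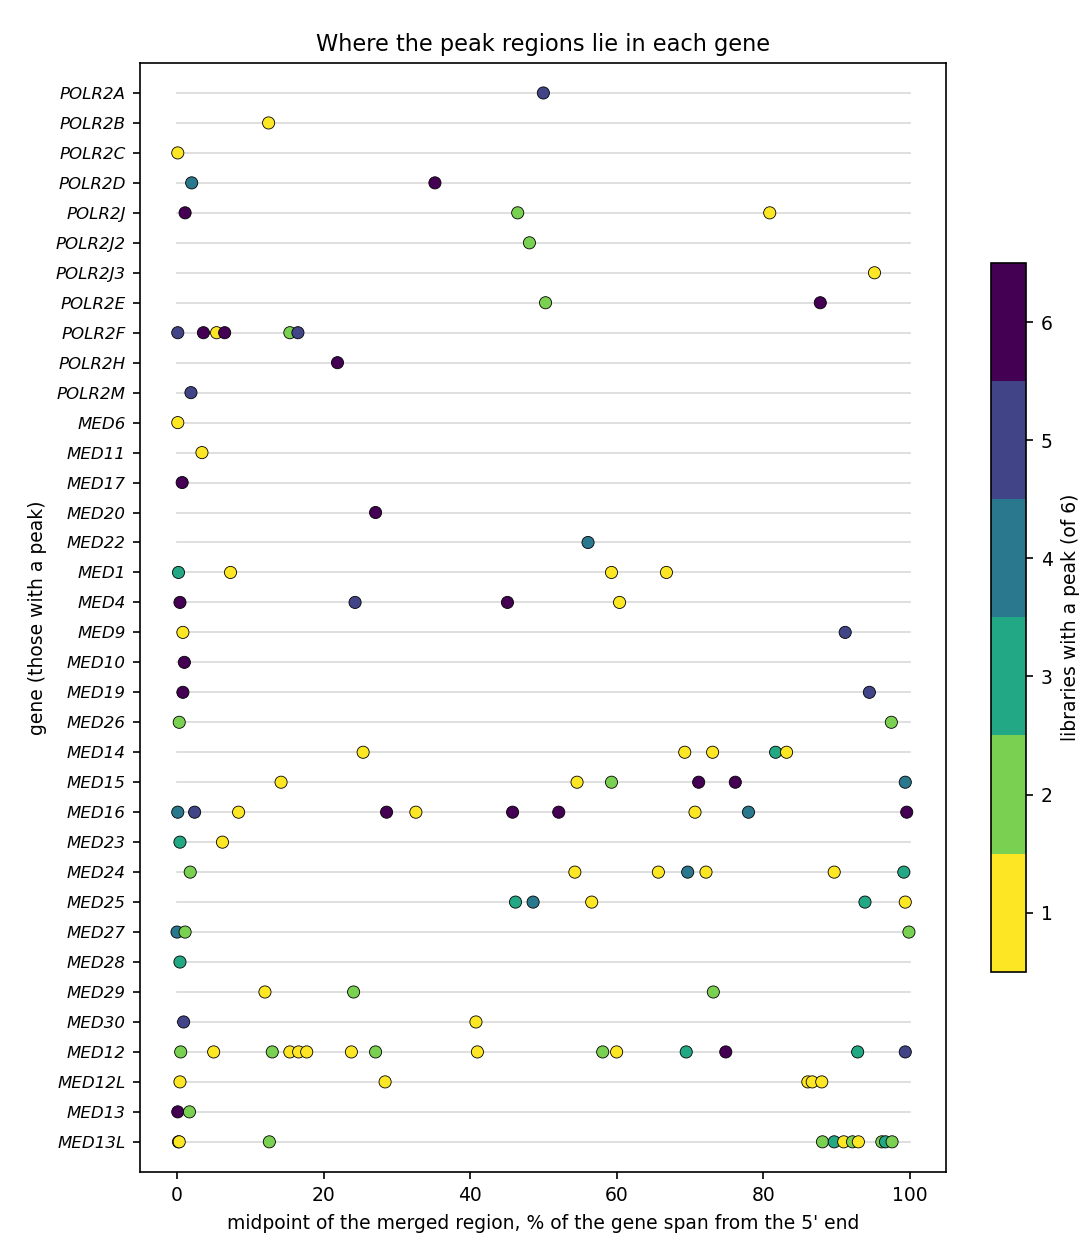
Midpoints of the 117 merged peak regions along the span of each of the 36 genes with a peak, in percent from the 5′ end, coloured by the number of libraries with a peak. Regions in all 6 libraries lie at the start in 6 cases, between the ends in 12 and at the end in 2.

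No region was listed in every library of one group and in 0 of the other, 0 of 117, beside 1.16% of all 41755 regions. A difference of at least 2 libraries between the groups was seen in 12 of 117 regions, beside 9.99% of all regions. Listed in more control libraries were the region at the start of POLR2D (3 against 1), that of POLR2J2 (2 against 0), the one at the end of MED26 (2 against 0), 1 of MED24 (3 against 1), 1 of MED25 (3 against 1) and 1 of MED27 (2 against 0). Listed in more knockdown libraries were 1 region of POLR2F (0 against 2), the start of MED26 (0 against 2), 1 of MED16 (1 against 3) and 1 each of MED12, MED13 and MED13L (0 against 2). The 12 thus split evenly, 6 each way.

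By rank within the library, the groups did not overlap in MED19, MED25 and MED13. Of the 17 genes with a peak in all 6 libraries, these 3 had percentiles of the highest-scored peak that did not overlap between the groups, beside 9.03% of 5966 such genes. By region, with an absent peak set to 0, 3 of 50 regions with a peak in at least 3 libraries did not overlap, beside 12.1% of 19857 regions. Each had the smallest possible p of the two-sided exact permutation test, 0.1, with an adjusted p of 0.652 over genes and 0.815 over regions (Benjamini-Hochberg), and neither count is read as a feature of these genes.

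MED19, a subunit of the middle module, ranked higher in the knockdown libraries when all listed peaks were used. Its highest-scored peak had percentiles of 44.8, 51.9 and 52.1 in control and 77.6, 53.9 and 63.5 in knockdown. That peak lay at the 3′ end in knockdown replicates 2 and 3 and at the start in the other libraries. In the MED19 region at the 3′ end, chr11:57703714-57704635, the percentiles were 3.4 in control replicate 1 and 2.3 in control replicate 3. Control replicate 2 had no peak there, and the knockdown libraries had 15.0, 53.9 and 63.5. With the absent peak at 0 the means were 1.9 ± 1.7 and 44.1 ± 25.7 (SD, n = 3), a difference of 42.3 points. In the MED19 region at the start, whose sequence is given above, the control libraries had percentiles of 44.8, 51.9 and 52.1 and the knockdown libraries 77.6, 47.4 and 60.7, and the groups overlapped. With the 50% of peaks that scored highest in each library, the groups overlapped in the 3′ region too, with a difference of 11.6. They also overlapped there with lists of equal length, with a difference of 37.9.

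MED25, the tail subunit bound by the activator VP16, was higher in control libraries in 1 region and by its highest-scored peak. A neighbouring region, chr19:49828449-49828547, had percentiles of 31.9 and 8.7 in control replicates 1 and 2 and 50.1 in knockdown replicate 2. In the region chr19:49828970-49829090 the percentiles were 31.6, 40.4 and 57.8 in control against 27.2 in knockdown replicate 1, with no peak in knockdown replicates 2 and 3. The means were 43.3 ± 13.3 and 9.1 ± 15.7 (SD, n = 3), a difference of -34.2 points. The highest-scored MED25 peak of each library lay in different regions, at percentiles of 79.5, 64.5 and 57.8 in control and 49.7, 50.1 and 11.2 in knockdown. With the 50% of peaks that scored highest in each library, the groups overlapped in the region, with a difference of -5.2.

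In MED13 the region at the start, chr17:62065140-62065282, had percentiles of 69.2, 29.5 and 73.1 in control and 81.5, 83.4 and 74.3 in the knockdown libraries. The means were 57.2 ± 24.1 and 79.7 ± 4.8 (SD, n = 3), a difference of 22.5 points. The lowest knockdown value and the highest control value were 74.3 and 73.1, so the gap between the groups was far smaller than the spread of the control libraries. Without control replicate 2, the lowest, the difference was 8.6 points.

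**Figure D4:**
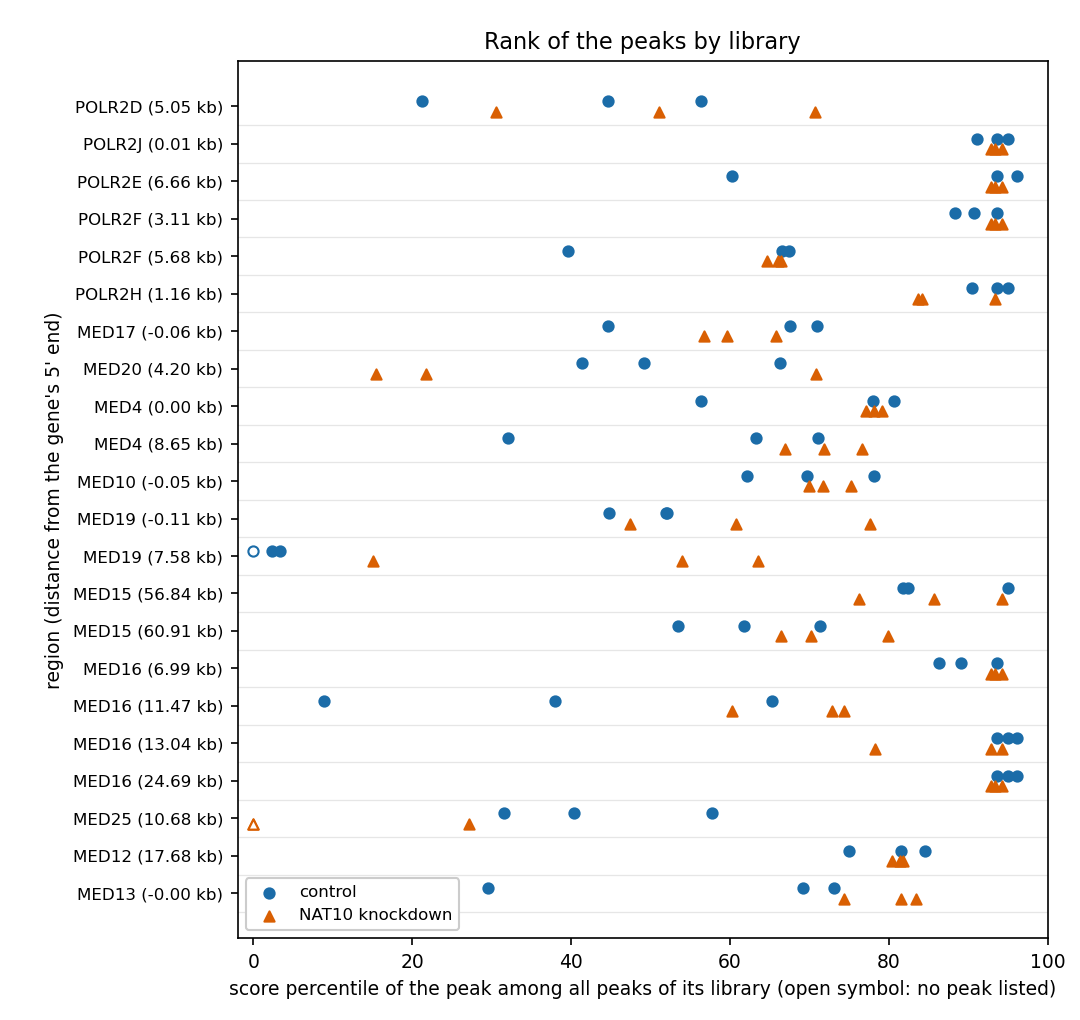
Score percentile of the peak in each library (100 is the highest in that library) for the 20 regions in all 6 libraries and the MED19 and MED25 regions whose groups do not overlap, with control as circles and NAT10 knockdown as triangles. The distance of the region from the 5′ end is in brackets, open symbols at 0 mean that no peak was listed, and only MED13 at the start, MED19 at the 3′ end and MED25 have groups that do not overlap.

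Genes that work beside RNA polymerase II were counted in the same way. Of 26 general transcription factor genes, which place the polymerase at the promoter, 19 held a peak and 14 did so in all 6 libraries, and of 14 elongation factor genes 10 and 9. Of 8 POLR1 genes 6 held a peak, and of 10 POLR3 genes 9. In none of these lists did a gene have peak numbers that did not overlap between the groups, beside the 2.22% over all genes with a peak. By the percentile of the highest-scored peak, the groups did not overlap in 1 of the 14 general transcription factor genes with a peak in all 6 libraries. Among CDK8, CDK19 and CCNC this was 1 of 1 such gene. Among such elongation factor, POLR1 and POLR3 genes it was 0 of 9, 0 of 5 and 0 of 3. Over all genes with a peak in all 6 libraries the share was 9.03%.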

How the data were processed

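The deposited lists hold the authors' ac4C peaks of each immunoprecipitated library, limited to mRNA and not pooled, with a position, a strand and a score per peak. The score deposited by the authors runs from 50 to 3233.06. Its unit, the peak caller's settings and the aligner are not given in the sources used here, and the peak names are of the form MACS writes. The submitters' processing notes name GRCh38. Without read counts the depth is unknown, and no interval is given. Scores of 3100 or more were set to 3100 and scores were used only as ranks within a library.

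Gene spans came from RefSeq GRCh38.p14, and the strand from its promoter table for 15843 genes (32 of the 45) or from the majority strand of the peaks in the span for 2384 (8 of the 45: MED6, MED13, MED14, MED22, MED28, MED30, POLR2J and POLR2J3). Those strands were the same in 96.7% of 10030 genes that have both. The other 5 of the 45 genes had no strand and no peak. Between 1.54% and 1.74% of a library's peaks lay in more than 1 gene and were counted in each. Regions were merged by 1 base of overlap within a strand.

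Groups came from the sample titles. Peak numbers and percentiles were compared by two-sided exact permutation tests, presence by Fisher's exact test, with Benjamini-Hochberg adjustment over all genes or regions. The genes described in each library were those with the most peaks, the large subunits, the kinase module, the POLR2J copies and those whose groups did not overlap, and further members were named after their values were seen. The members and lists were chosen with earlier results of these data known, and the rules on regions in at least 3 libraries, on start and end and on markers after the lists were seen. The code was tested on simulated data. Alternatives were other peak sets, overlap rules and strand rules, a replicate block and each library left out. Python 3.11.15, numpy 2.4.6, pandas 2.3.3, scipy 1.17.1 and matplotlib 3.10.9 were used. The 6 input libraries were not analysed here.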

Additional observations from a re-analysis of the deposited data

How the results depend on the processing

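With the 50% of peaks that had the highest scores in each library, 9 genes instead of 17 held a peak in all 6 libraries, 12 regions instead of 20 did, and 2 genes had peak numbers that did not overlap, MED12 (2, 2 and 2 in control, 3, 3 and 3 in knockdown) and MED16 (5, 5 and 5 against 6, 6 and 7), 2 of 25 beside 2.17% of all genes with a peak. In that setting the percentiles of the highest-scored peaks did not overlap in 0 of 9 genes with a peak in every library, instead of 3 of 17. Over all such genes the share was 8.16% of 3565. By region 1 of 31 (MED13) did not overlap, instead of 3 of 50, beside 11.7% of 10470 regions with a peak in at least 3 libraries. The differences in the MED19 and MED25 regions were 11.6 and -5.2, with overlapping groups. With equally long lists of the highest scores the MED19 difference was 37.9 with overlapping groups, and 1 region instead of 0 was listed in every library of one group only (MED25), beside 1.17% of all regions. That number was also 1 when a library had to cover 50% of the region (POLR2F), beside 1.15%. With a difference of 2 libraries taken as enough, 1 of 36 genes (POLR2J2) instead of 0 differed between the groups, beside 7.67% of all genes with a peak. The cause was not tested.

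With each library left out in turn, the genes whose peak numbers did not overlap numbered 0 to 2, the regions in one group only 1 to 5, the genes whose highest-scored peaks did not overlap in percentile 5 to 6, and the regions whose percentiles did not overlap 6 to 11. Over all genes or regions the same omissions gave 4.59% to 6.52%, 2.3% to 3.45%, 14.4% to 34.4% and 17.8% to 31.9%, beside 0% to 5.56%, 0.862% to 5.0%, 26.3% to 33.3% and 13% to 24.4% of these genes or their regions. The difference in peaks per library, knockdown minus control, ran from -9.33 to 5.67, from -0.667 with all libraries, the lowest without knockdown replicate 1 and the highest without control replicate 2. It was also above 0 without knockdown replicate 2 (3.17) or 3 (4.17), with the 50% of peaks that scored highest (3.0) and with only the genes whose strand is in the promoter table (0.333), so it has no settled direction. The regions in every library numbered 21 to 23, the genes with a peak in every library 17 to 19 and those with a peak in any 32 to 36. The MED19 difference ran from 32.6 to 56.8, that of MED25 from -43.3 to -26.9 and that of MED13 from 8.6 to 30.4. The differences in these 3 regions kept their direction in the alternatives run for them. The regions were picked because their groups did not overlap, so leaving out 1 library could not reverse a difference. The rules on gene overlap and strand do not change a region's percentiles, so the kept direction adds no support.

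Under a replicate block the difference in peaks was -0.667 (exact sign-flip test, p = 1.0, smallest possible 0.25), and 0 genes had the same sign in all 3 pairs without ties. That count was not made over all genes, so it is not read as a result about these genes. Correlations of same-numbered libraries' deviations were 0.0495, 0.0172 and 0.0311, and those of libraries with other numbers ran from -0.034 to 0.0106. Each same-numbered value was above all of the others, but all were small. Whether the numbers pair the libraries is thus not settled, and the block is given only as an alternative. Unknown depth, tied highest scores and 3 libraries per group limit every comparison.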
